A study of Mus musculus with 10 samples.

Results

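Pax5 promoter peaks that were called in Pax5+/+ pro-B cells and not in Pax5R31Q/- pro-B cells, which have the Pax5-R31Q protein, are described here. A lost peak is a peak that was not called, and weaker binding may remain there. A peak of the Pax5+/+ list was taken when it was under 1000 bp wide, overlapped no peak of the Pax5R31Q/- list by any base, had a base within 1000 bp of a RefSeq transcription start site (TSS), and was under 50% soft-masked in the GRCm38 sequence. Of the 41983 peaks of the Pax5+/+ list, 922 (2.196%) met this rule, and they are called lost promoter peaks below. They lay within 1000 bp of a TSS of 1007 RefSeq genes, of which 747 were protein-coding and 250 were genes for long noncoding RNAs. The rule used the positions of the peaks and the genome sequence. It did not use the expression of any gene.

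Both peak lists came from chromatin immunoprecipitation with sequencing (ChIP-seq) of C57BL/6 bone marrow pro-B cells that had been cultured for a short time on OP9 stromal cells with IL-7, with 1 library per genotype. The antibody was raised against the paired domain of Pax5, which includes residue 31. The Pax5+/+ cells of this experiment also carried Rag2-/-, which is not listed for the Pax5R31Q/- cells. The Rag2 and Pax5 genotypes therefore cannot be told apart in the peak lists. Pax5R31Q/- cells also have a null allele beside the R31Q allele, and there was no ChIP-seq of Pax5+/- cells. The lower dose of Pax5 and the R31Q change therefore cannot be told apart in the peak lists either. RNA-seq was available for 4 genotypes of C57BL/6 bone marrow cells sorted without culture, with 2 libraries each: Pax5+/+, Pax5+/-, Pax5R31Q/- (an R31Q allele and a null allele), and Pax5-/-, which stands for Vav-Cre Pax5 fl/fl. Vav-Cre acts throughout the blood lineages, and the labels name the Pax5-/- cells progenitors and the others pro-B cells. The labels do not say whether the 2 libraries of a genotype came from different mice, so p-values measure the spread between these libraries only.

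Pax5 is the transcription factor that commits lymphoid progenitors to the B cell lineage. It activates genes of B cell identity and signaling and represses genes of other lineages. It binds DNA through its paired domain, whose N-terminal and C-terminal modules contact different ends of the recognition sequence, and residue 31 lies in the N-terminal module. Promoters of mammalian genes fall broadly into CpG-rich promoters, which are typical of widely expressed genes, and CpG-poor promoters, which are typical of tissue-restricted genes.

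The recognition sequence was searched as 2 segments separated by 1 free base. The first segment, at positions 1 to 7, is GCANCCA, where N stands for any base, and the second segment, at positions 9 to 15, is GCGTGAC. The best match of the combined 13 defined letters was taken on either strand of the 300 bp around the midpoint of each peak. Of the 922 lost promoter peaks, 0 matched all 13 letters and 3 matched 12. These 3 sites are shown first, 5′ to 3′ on the strand of the match, with letters equal to the recognition sequence in capitals and 7 flanking bases on each side. They lie at chr12:17323609-17323637 (Atp6v1c2), chr2:140066562-140066590 (Tasp1) and chr3:30238754-30238782 (Mecom) of GRCm38, and each holds the whole second segment. These genes were chosen for their sites after the values were seen.
Atp6v1c2: ggtcaagGaAgCCAgGCGTGACaaatgga
Tasp1: actggcgGCccCCAcGCGTGACcacaact
Mecom: gccaaagGCtgCCAtGCGTGACaaggctt

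Most lost promoter peaks held no match of this quality. The best sites of genes whose expression was lower in Pax5R31Q/- pro-B cells, which are described further below, matched 8 to 10 letters. They are shown for the B cell receptor inhibitor Siglecg (chr7:43408128-43408156), the Notch target Heyl (chr4:123233724-123233752), the secreted Dickkopf protein Dkk3 (chr7:112157627-112157655), Pcp4l1 (chr1:171196330-171196358), the claudin Cldn4 (chr5:134946874-134946902), the R-spondin receptor Lgr5 (chr10:115586879-115586907), and the microtubule-binding protein Map7 (chr10:20171443-20171471), whose site has all 7 letters of the second segment but 2 of the 6 defined letters of the first. Gimap3 (chr6:48770879-48770907), a GTPase of the Gimap family whose expression was higher, has the reverse arrangement, with all 6 letters of the first segment and 2 of the second.
Siglecg: ggtgagtGCAggagaGCGaGACctcctgg
Heyl: ctgcaccGCAgCCcgGgGcGcCccggcgc
Dkk3: ttgtgggGCAgCgAaGgagGACtaaagta
Pcp4l1: gctccttGaAcCCAgtgGTGgCaggctca
Cldn4: tgcaccaGCtaCCAaGCGcGAacactgca
Lgr5: tcctattGCtcaCAgGCGcGACctctgcg
Map7: cccgaggGtgtgCgaGCGTGACcagcaag
Gimap3: gaagaagGCAgCCAgtgGaaAaggttgat

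Wider context is given for a pair of these promoters, on the plus strand of GRCm38, with exact matches to either segment in capitals. The Siglecg stretch, chr7:43407930-43408191, is the part of the lost peak upstream of the annotated gene. It holds neither segment. The Ms4a1 stretch, chr19:11266345-11266644, lies in the lost peak at the gene for the B cell surface protein CD20 and overlaps no exon. It holds the first segment at 2 places as GCACCCA.
Siglecg: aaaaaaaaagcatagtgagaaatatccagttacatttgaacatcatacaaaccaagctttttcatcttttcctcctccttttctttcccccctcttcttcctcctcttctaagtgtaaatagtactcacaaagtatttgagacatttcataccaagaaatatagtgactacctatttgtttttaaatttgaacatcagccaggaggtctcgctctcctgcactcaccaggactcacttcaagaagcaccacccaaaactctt
Ms4a1: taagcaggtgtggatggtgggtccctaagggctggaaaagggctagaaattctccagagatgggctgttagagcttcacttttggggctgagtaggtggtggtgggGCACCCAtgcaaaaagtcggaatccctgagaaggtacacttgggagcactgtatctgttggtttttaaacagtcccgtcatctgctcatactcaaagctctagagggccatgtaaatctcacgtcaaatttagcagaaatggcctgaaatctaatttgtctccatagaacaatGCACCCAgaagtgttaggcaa

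Lost promoter peaks were narrow. Their median width was 313 bp, with an interquartile range of 271 to 376 bp and a full range of 183 to 977 bp. The 8261 promoter peaks of the same width and masking limits that a Pax5R31Q/- peak overlapped, called shared promoter peaks, had a median width of 517 bp (390 to 673 bp). The 6493 lost peaks within these limits that lay farther than 1000 bp from any TSS, called lost distal peaks, were as narrow as the lost promoter peaks, with a median of 308 bp (268 to 363 bp). Heights, summits and scores are not part of these lists, so that width is the only measure of a peak's size in them. The whole Pax5R31Q/- list held 18821 peaks with a median width of 559 bp, against 332 bp in the whole Pax5+/+ list.

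The share of promoter peaks that were lost fell with each step in width. It was 51.9% (95% Wilson interval 44.7 to 59.1%) of the 181 peaks of 180 to 239 bp and 0.699% (0.339 to 1.44%) of the 1001 peaks of 800 to 999 bp. Over all 9183 promoter peaks within the limits, 10.04% were lost, against 51.2% of the 12684 distal peaks within the same limits. Without the limits on width and masking, 9.52% of promoter peaks and 25302 of 31960 distal peaks (79.2%) were lost. Intervals on shares of peaks cover counting error only, since there was 1 ChIP-seq library per genotype and the differences between peak sets have no replicate check. The widest lost promoter peaks, at 977, 927 and 890 bp, lay at Clec2m, a C-type lectin gene, at Cdyl2 and at Tapt1. The first of these was also the member closest to the width limit, and the next wider peak left out by it, of 1145 bp, lay at Slc20a2. At the other limits, the members just inside lay at Ccdc43 (49.4% masked) and Hspb7 (1000 bp from the TSS), and the peaks just outside at Gm31060 (51.2%) and Ehbp1l1 (1004 bp).

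**Figure D1:**
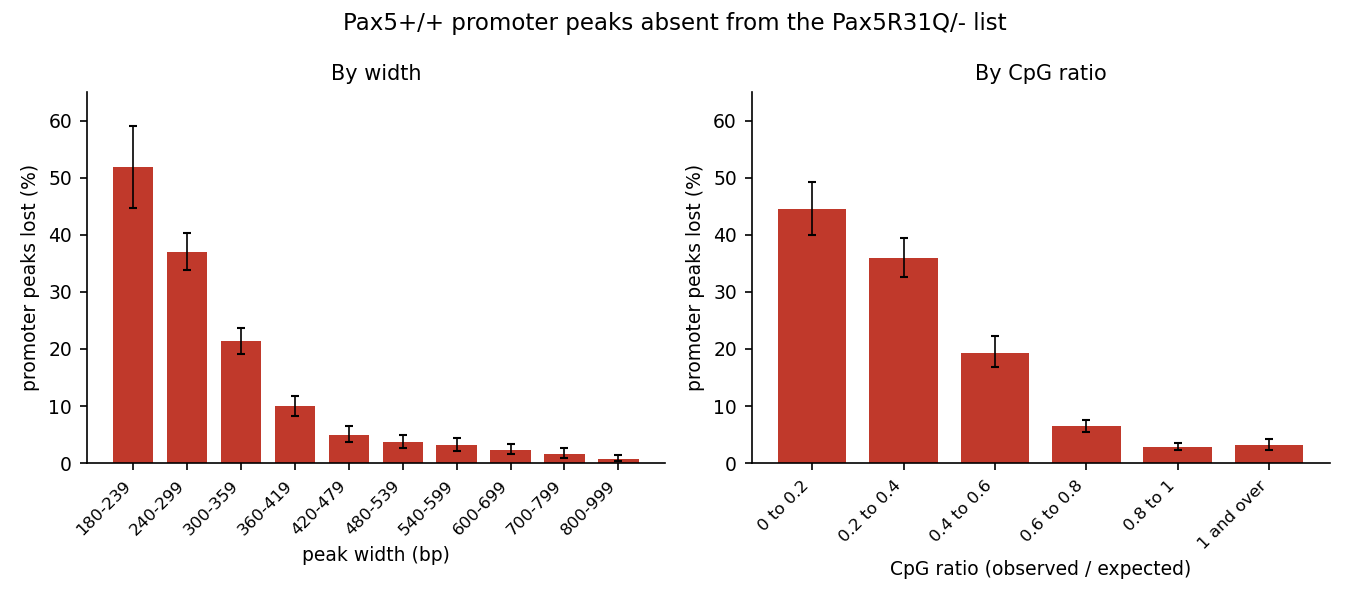
Share of Pax5+/+ promoter peaks absent from the Pax5R31Q/- list (y axis, percent) by peak width in bp (left) and by CpG ratio of the 300 bp around the peak midpoint (right); bars are shares and error bars 95% Wilson intervals. The narrowest class lost 51.9% of its peaks and the widest class 0.699%. The share falls from 44.6% at CpG ratios under 0.2 to 2.86% at ratios of 0.8 to 1.

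Lost promoter peaks also lay farther from the TSS than shared ones. The TSS was inside the peak for 372 of the 922 (40.3%) and for 6994 of the 8261 shared promoter peaks (84.7%). The median distance of the midpoint from the nearest TSS was 327.5 bp for lost and 74 bp for shared promoter peaks, and the midpoint was within 200 bp of the TSS for 41.8% and 79.7%, respectively. These shares were not compared within classes of width. Midpoints of lost promoter peaks were upstream of the TSS in 418 cases and downstream in 500. By annotation of the midpoint, 368 lay in introns (39.9%), 313 in noncoding exons or untranslated regions (33.9%), 54 in coding exons (5.86%) and 187 outside genes (20.3%). Among shared promoter peaks, 16.3% lay in introns and 46.0% in noncoding exons or untranslated regions. Of the 922 peaks, 667 were near a curated RefSeq TSS and 255 near predicted ones only.

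**Figure D2:**
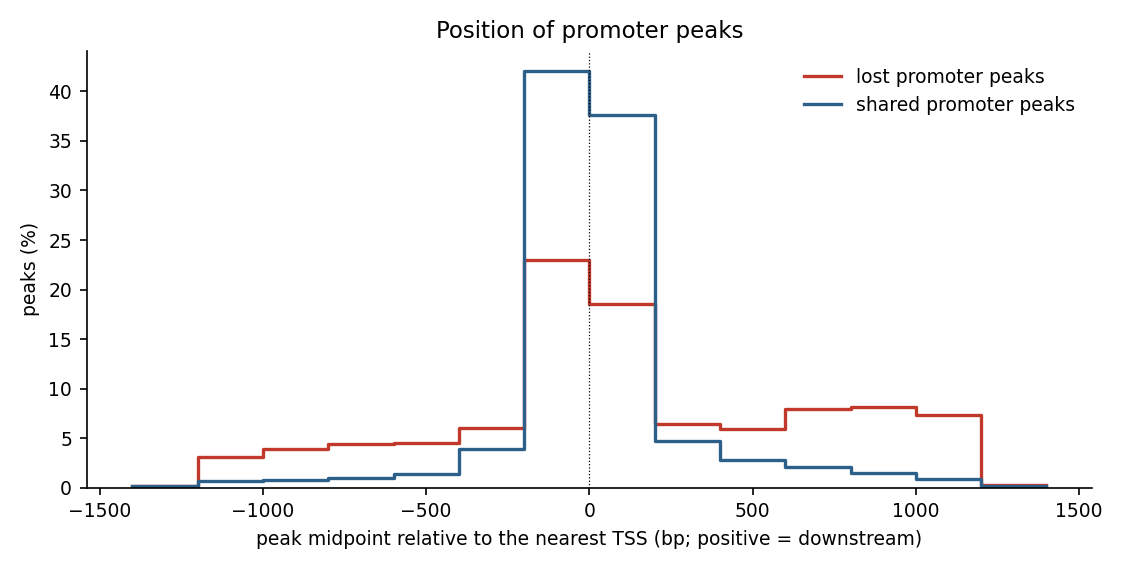
Position of the peak midpoint relative to the nearest TSS (x axis, bp in 200-bp bins, positive values downstream) as percent of lost and of shared promoter peaks (y axis). Lost promoter peaks have 41.8% of midpoints within 200 bp of the TSS with the others spread over both sides, while 79.7% of shared promoter peaks lie within 200 bp.

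In CpG and GC content, lost promoter peaks were closer to the average promoter than to shared promoter peaks. The CpG ratio, which is the observed number of CpG dinucleotides divided by the number expected from the C and G content, had a median of 0.389 in the 300 bp around the midpoint. It was 0.841 in shared promoter peaks, 0.216 in lost distal peaks and 0.383 in 32815 RefSeq promoters of 300 bp. Here and in the motif shares below, the windows of all promoters were placed by the TSS, mostly upstream of it. Those of peaks were centred on the midpoint, so their placement differs. A ratio over 0.6 was found in 31.2% of lost and 82.9% of shared promoter peaks. The median GC content was 51.7% in lost promoter peaks, 65.3% in shared promoter peaks, 46.0% in lost distal peaks and 52.7% in all promoters.

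CpG ratio and width each moved with the loss when the other was held within a class. Among promoter peaks of 180 to 299 bp, 57.8% were lost at CpG ratios up to 0.6 and 22.7% above it. Among those of 600 to 999 bp, the shares were 9.82% and 0.563%. In all 4 width classes examined, the CpG-poor class lost more peaks than the CpG-rich class, and the Wilson intervals of each pair did not overlap.

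The segments of the recognition sequence separated lost from shared promoter peaks by less than the CpG ratio did. Shares refer to the 300-bp window around the midpoint, which covers a smaller part of the wider shared promoter peaks. GCANCCA was present on either strand in 26.8% of lost promoter peaks (24.03 to 29.7%), 23.3% of shared promoter peaks (22.4 to 24.2%), 25.4% of lost distal peaks and 20.3% of all promoters. GCGTGAC was present in 4.66% of lost (3.48 to 6.22%) and 6.85% of shared promoter peaks (6.33 to 7.42%), in 5.39% of lost distal peaks and in 2.09% of all promoters. Either segment was found in 283 of the 922 lost promoter peaks (30.7%). Within CpG-poor peaks, the Wilson intervals of lost and shared promoter peaks overlapped for both segments. Of the 9183 promoter peaks, 16.2% (13.5 to 19.4%) were lost where the best site held all 6 defined letters of the first segment, and 8.35% (6.01 to 11.5%) where it held 2. For the second segment, 9.72% (6.81 to 13.7%) were lost at all 7 letters and 13.4% (11.4 to 15.7%) at 3, with overlapping intervals. The share was 9.76% at 4 letters and 9.36% at 6. Sites were chosen by their combined letters, so more letters in the first segment tend to go with fewer in the second. Trends of the segments are therefore not independent. By the whole site, 28.0% (19.9 to 37.8%) were lost at 7 letters, 8.58% at 9 and 25.8% (19.97 to 32.7%) at 11, so that the share did not move in 1 direction with the number of letters.

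Sites with 11 or more of the 13 letters were found in 49 lost promoter peaks (5.31%), against 1.90% of shared promoter peaks, 8.12% of lost distal peaks and 0.698% of all promoters. In CpG-poor peaks, the shares were 6.31% of lost (4.67 to 8.48%) and 3.76% of shared promoter peaks (2.88 to 4.88%), with overlapping intervals. In these sites, positions 11 and 14, which belong to the second segment, were each matched in 34 of 49 lost promoter peaks (69.4%, 55.5 to 80.5%). In the 157 sites of this kind in shared promoter peaks, G at position 11 was matched in 84.7% (78.3 to 89.5%) and A at position 14 in 79.6% (72.6 to 85.2%). In the 527 sites of lost distal peaks, G at position 11 was matched in 55.8% (51.5 to 59.97%) and A at position 14 in 83.9%. Position 7 went the other way, with A matched in 89.8% of lost and 75.8% of shared promoter peaks. Over the 13 positions, lost promoter peaks were matched more often at 6 and less often at 7, and the Wilson intervals of lost and shared promoter peaks overlapped at each position. These sites were taken for matching 11 or more letters, so more matches at some positions go with fewer at others. The balance between positions was therefore largely set by the choice of sites. A match is a description of the letters in the window and does not show that Pax5 bound there.

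Motifs of other factors differed in either direction. The Sp/Klf motif GGGCGG was found in 28.0% of lost and 69.1% of shared promoter peaks, against 35.6% of all promoters and 5.64% of lost distal peaks. The ETS motif CCGGAAG was found in 53 of the 922 lost (5.75%) and 1652 of the 8261 shared promoter peaks, against 8.86% of all promoters. The Runx motif TGTGGT was more frequent in lost (19.7%, 17.3 to 22.4%) than in shared promoter peaks (13.2%, 12.5 to 13.9%), with 27.9% in lost distal peaks and 16.8% in all promoters. The E protein motif CAGGTG was found in 23.9% of lost (21.2 to 26.7%) and 18.7% of shared promoter peaks (17.9 to 19.6%), and in 20.2% of all promoters. The Ikaros motif TGGGAA (20.9% and 19.4%) and the EBF1 motif, which is TCCC and GGGA separated by 2 free bases (1.74% and 1.45%) had overlapping intervals in lost and shared promoter peaks, with 25.6% and 0.905% in all promoters. The NF-Y motif CCAAT was found in 27.8% of lost and 34.0% of shared promoter peaks, and in 37.4% of all promoters. The Sp/Klf and ETS motifs each contain a CpG, and the CpG ratio differed between these sets of peaks. Shares of the motifs of other factors were not compared within classes of CpG ratio. Both strands were searched for each motif, no motif contains another, and matches of different motifs could share bases.

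**Figure D3:**
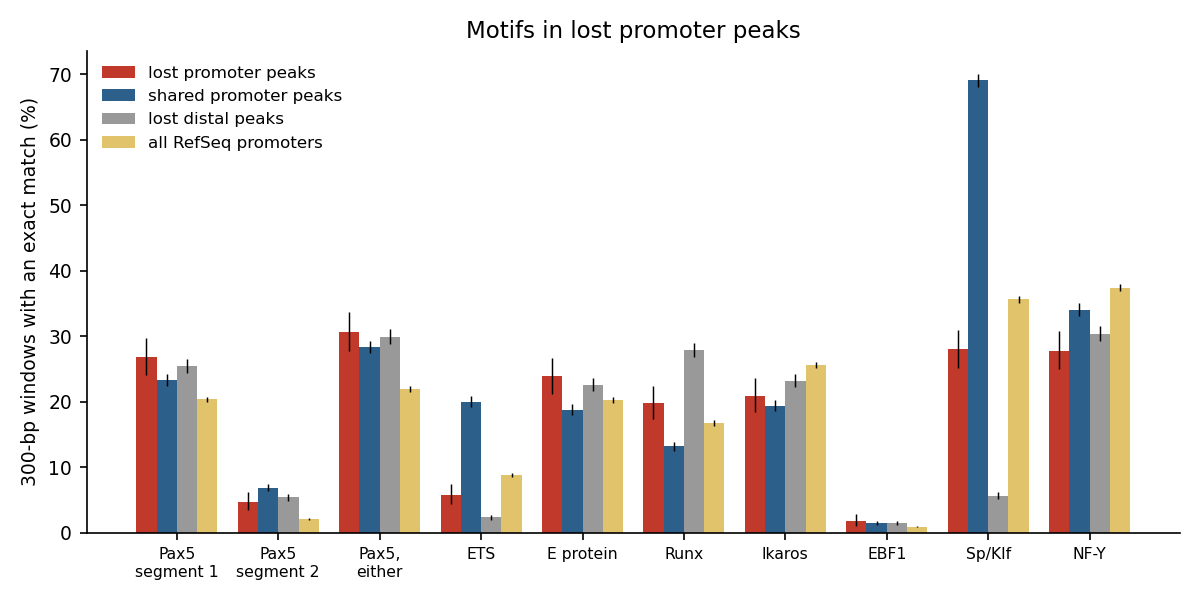
Percent of 300-bp windows with an exact match to each motif (y axis) in lost promoter, shared promoter and lost distal peaks and in all RefSeq promoters; Pax5 segment 1 and segment 2 are the first and second segments of the recognition sequence, and error bars are 95% Wilson intervals. The largest gap between lost and shared promoter peaks is that of the Sp/Klf motif, at 28.0% and 69.1%. This motif contains a CpG, and the shares are not split by CpG ratio.

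Other Pax5R31Q/- peaks were often far away. A Pax5R31Q/- peak lay within 250 bp of 63 of the 922 lost promoter peaks and within 1000 bp of 219 (23.8%), and the median distance to the nearest one was 13778.5 bp. By chromosome, the share of promoter peaks that were lost ranged from 7.25% on chromosome 8 to 15.2% on chromosome X, leaving out chromosome Y, which held 2 promoter peaks and 0 lost ones.

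Of the 1007 genes at lost promoter peaks, 793 were found in the RNA-seq table, 10 of them by an older symbol, and 623 passed the filter of 1 TPM, a transcript abundance scaled to the same total in every library, in 1 or more libraries. The other 170 were under this filter in all 8 libraries, and 214 genes had no row that matched. A gene that passed only through the genotype where it is high had to differ, so the counts below refer to the genes tested. Promoter loss was most frequent among genes that were hardly expressed. Genes with a lost or a shared promoter peak were taken, which leaves out genes whose promoter peaks were all beyond the limits on width or masking. A lost peak was present for 21.4% (18.9 to 24.2%) of those under 1 TPM in Pax5+/+ pro-B cells. It was present for 11.2% at 1 to 5 TPM, and for 6.79% (5.65 to 8.14%) at 100 TPM and over.

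Expression was compared by limma on log2(TPM + 1), where changes of low values appear smaller than they are, with Benjamini-Hochberg adjustment over all 13436 genes tested. A gene was called at an adjusted p under 0.05, a difference over 3-fold and a mean TPM over 5 in either genotype. In Pax5R31Q/- against Pax5+/+ pro-B cells, 20 of the 623 genes at lost promoter peaks (3.21%) were called lower, against 0.558% of all genes tested, and 2 (0.321%) were called higher, against 0.275%. Genes whose promoter peaks were shared only were called lower in 24 of 7464 cases (0.322%). Of the 346 genes that had a lost and no shared promoter peak, 18 were called lower (5.20%). A Pax5R31Q/- peak outside this count of shared promoter peaks lay within 1000 bp of a TSS of 38 of these 346 genes, among them the called genes Mgst2 and Scd1, and 16 of the remaining 308 were called lower. Of the 277 genes that kept a shared promoter peak beside the lost one, 2 were called lower (0.722%). No test was made of the difference between these sets of genes.

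Looser thresholds gave more calls. At a fold threshold of 2, 35 of the 623 genes were lower, against 1.21% of all genes, and 4 were higher, against 0.767%. On the adjusted p alone, 55 genes (8.83%) were lower, against 2.55% of all genes, and 9 (1.44%) were higher, against 1.62%. Most genes at lost promoter peaks did not pass any of these thresholds. Their median log2 fold change was -0.03, with an interquartile range of -0.33 to 0.19, beside 0.04 over all genes tested and 0.05 over genes with shared promoter peaks only. The median for genes at lost promoter peaks was 0.01 without library 2 of Pax5R31Q/-, so its sign rests on that library. Values below 0 were found for 333 of the 623 genes (53.5%) and for 44.1% of all genes tested.

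**Figure D4:**
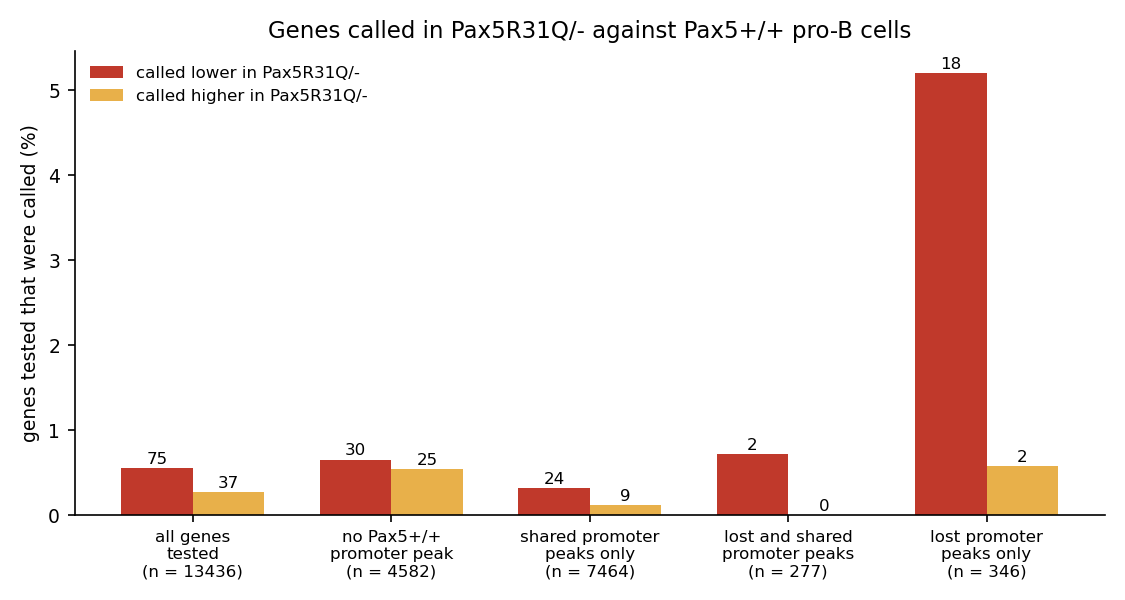
Percent of the genes tested (y axis) that were called lower or higher in Pax5R31Q/- than in Pax5+/+ pro-B cells, by the Pax5+/+ promoter peaks of the gene; the number above each bar is the count of called genes, and n is the number of genes tested. Genes with lost promoter peaks only show 18 of 346 called lower, and genes with shared promoter peaks only 24 of 7464.

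Markers of other cells differed between the genotypes. All 12 pro-B cell markers were at 1 TPM or more in every library, and their summed level was 16621 to 19432 TPM in Pax5+/+, 15524 to 16292 in Pax5+/-, 15379 to 15841 in Pax5R31Q/- and 8255 to 9113 TPM in Pax5-/-. The 14 granulocyte and macrophage markers summed to 673 to 898 TPM in Pax5+/+, 1119 to 2179 in Pax5+/-, 1303 to 1404 in Pax5R31Q/- and 495 to 3391 TPM in Pax5-/-. The 16 T and NK cell markers summed to 133 to 152 TPM in Pax5+/+, 172 in both Pax5+/- libraries, 174 to 180 in Pax5R31Q/- and 424 to 461 TPM in Pax5-/-. Lck had 60.4 and 63.4 TPM in Pax5+/+ and 94.4 and 98.7 TPM in Pax5R31Q/-, and Tcf7 was also higher there, while Zap70, Nkg7 and Cd4 had lower values in Pax5R31Q/-. The defining markers Cd3d, Cd3e and Cd3g were at 0.666 TPM or lower in every library, and the median log2 fold change of the 10 T and NK cell markers tested was -0.22. Of the 9 erythroid markers found, 2 were at 0 in both Pax5+/+ libraries and in both Pax5R31Q/- libraries, and the sums were 91.0 to 144 TPM in Pax5+/+, 83.8 to 121 in Pax5+/-, 106 to 132 in Pax5R31Q/- and 15.9 to 46.8 TPM in Pax5-/-. The 10 stromal and adipocyte markers summed to 24.3 to 26.7 TPM in Pax5+/+, 17.2 to 25.3 in Pax5+/-, 23.4 to 26.3 in Pax5R31Q/- and 8.16 to 23.9 TPM in Pax5-/-. Of the granulocyte and macrophage, erythroid or stromal markers, 0 had a lost promoter peak, as against 3.10% of all genes in the table. In bulk samples, fewer cells of a type and less RNA per cell cannot be told apart, and the part of these cells in the differences between genotypes was not tested.

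The 20 genes called lower encode proteins of several kinds. Pde9a, a phosphodiesterase that degrades cyclic GMP, fell furthest. It had 26.0 and 43.5 TPM in the Pax5+/+ libraries, 15.2 and 9.22 in Pax5+/-, 0.0696 and 0 in Pax5R31Q/-, and 0.0483 and 0 in Pax5-/-. The Pax5R31Q/- and Pax5-/- libraries were at the bottom of the range and did not overlap the others. The log2 fold change in Pax5R31Q/- against Pax5+/+ was -5.07 ± 0.30 (SE, limma adjusted p = 0.000313). With values this close to 0 its size depends on the pseudocount, and with a pseudocount of 0.1 it was -8.02, while Dkk3 moved from -3.08 to -5.52 and Clec2m (4922502D21Rik) from -2.89 to -5.55. Pde9a is on chromosome 17 from 31386105 to 31476309 and had 3 lost promoter peaks.

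Of the 6 genes at lost promoter peaks that are listed for B cell receptor signaling and the B cell surface, 3 were called lower. The share called lower was 3.21% over all genes tested at lost promoter peaks and 0.558% over all genes tested. Siglecg, an inhibitory receptor of B cells on chromosome 7 from 43408192 to 43418349, had 215 and 275 TPM in Pax5+/+, 156 and 141 in Pax5+/-, 44.2 and 46.3 in Pax5R31Q/-, and 10.6 and 15.9 TPM in Pax5-/-. The 4 genotypes did not overlap. Its log2 fold change in Pax5R31Q/- against Pax5+/+ was -2.40 ± 0.20 (SE, limma adjusted p = 0.00126). Ms4a1, which encodes CD20, had 14.04 and 25.8 TPM in Pax5+/+, 24.9 and 19.9 in Pax5+/-, 1.18 and 4.83 in Pax5R31Q/-, and 0.234 and 0.190 TPM in Pax5-/-. The Pax5+/+ and Pax5+/- values overlapped and the Pax5R31Q/- libraries lay below both. Its fold change of -2.49 ± 0.46 on the log2 scale (SE, limma adjusted p = 0.0261) lost its call in 7 of 13 alternative fits, with an adjusted p of 0.191 without library 2 of Pax5+/+ and 0.118 without library 1 of Pax5R31Q/-. Sh3bp5, which encodes a protein that binds the kinase Btk, had 127 and 148 TPM in Pax5+/+, 145 and 135 in Pax5+/-, 46.4 and 43.5 in Pax5R31Q/-, and 58.0 and 63.9 TPM in Pax5-/-. The lowest libraries of this gene were thus those of Pax5R31Q/-, with a log2 fold change of -1.59 ± 0.12 (SE, limma adjusted p = 0.000917). Sh3bp5 also kept a shared promoter peak.

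Heyl and Dkk3 were the called genes among those of the Notch and Wnt list with a lost promoter peak. Heyl, a transcriptional repressor and target of Notch on chromosome 4 from 123233556 to 123249870, had 68.7 and 70.2 TPM in Pax5+/+, 52.8 and 33.3 in Pax5+/-, 13.5 and 9.27 in Pax5R31Q/-, and 0 and 0.0312 TPM in Pax5-/-. Its values were separate between all genotypes, with a log2 fold change of -2.53 ± 0.25 (SE, limma adjusted p = 0.00254) in Pax5R31Q/-. Dkk3 had 7.37 and 8.98 TPM in Pax5+/+, 5.48 and 3.33 in Pax5+/-, 0.09998 and 0.0614 in Pax5R31Q/-, and 0.0833 and 0.0197 TPM in Pax5-/-, so that Pax5R31Q/- and Pax5-/- overlapped near 0. Lgr5, which encodes a receptor that enhances Wnt signaling, had 48.0 and 46.1 TPM in Pax5+/+, 21.1 and 25.3 in Pax5+/-, 13.03 and 9.17 in Pax5R31Q/-, and 0.169 and 0.406 TPM in Pax5-/-. For this gene the level in Pax5R31Q/- was between those of Pax5+/- and Pax5-/-. Edaradd, the adaptor of the ectodysplasin receptor, had 26.0 and 26.2 TPM in Pax5+/+, 8.54 and 9.35 in Pax5+/-, 1.48 and 1.52 in Pax5R31Q/-, and 0.381 and 0.489 TPM in Pax5-/-. Its log2 fold change in Pax5R31Q/- was -3.44 ± 0.15 (SE, limma adjusted p = 0.000237), and it kept a shared promoter peak.

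The other called genes that were lower are given with their log2 fold changes, and a pair of them with their TPM. The scavenger receptor Cd36, which takes up fatty acids, had 12.2 and 11.3 TPM in Pax5+/+ and 1.96 and 1.76 TPM in Pax5R31Q/-. The stearoyl-CoA desaturase Scd1 had 14.8 and 17.8 TPM in Pax5+/+ and 2.51 and 3.42 TPM in Pax5R31Q/-. The log2 fold changes were -2.16 for Cd36, -2.13 for Scd1, -2.34 for the phospholipid transporter Abcb4 and -2.19 for the lipid phosphatase Plpp3. The remaining called genes that were lower were the claudin Cldn4 (-3.79), the lectin gene Clec2m (-2.89, listed as 4922502D21Rik in the table), the secreted nuclease Dnase1l3 (-2.65), the metalloprotease Adam19 (-2.43), the secreted EGF-repeat protein Egfl6 (-2.31), Map7 (-2.30), the linker histone H1f10 (-1.61, listed as H1fx) and the glutathione transferase Mgst2 (-1.59), all given as log2 fold changes in Pax5R31Q/- against Pax5+/+. Adam19 lost its call in 5 of 13 alternative fits, among them those without either library of Pax5+/+ or Pax5R31Q/-, with adjusted p-values up to 0.165. Without either Pax5R31Q/- library, Egfl6 (0.0574 and 0.0523) and Scd1 (0.0777 and 0.0531) missed the threshold on the adjusted p, as did Scd1 without library 2 of Pax5+/+ (0.0663). Mgst2, Sh3bp5 and H1f10 each missed the 3-fold threshold without 1 library of Pax5+/+ and without 1 library of Pax5R31Q/-.

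Mgst2 was set apart by its level in Pax5-/- cells. It had 168 and 154 TPM in Pax5+/+, 121 and 140 in Pax5+/-, 54.3 and 51.6 in Pax5R31Q/-, and 218 and 228 TPM in Pax5-/-. The Pax5R31Q/- libraries were the lowest and the Pax5-/- libraries the highest, and the log2 fold change in Pax5-/- against Pax5+/+ was 0.47 (limma adjusted p = 0.0161), under the 3-fold threshold.

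Pcp4l1, a small protein related to a calmodulin regulator, was not called in Pax5R31Q/- because its change stayed under 3-fold. It had 195 and 242 TPM in Pax5+/+, 138 and 127 in Pax5+/-, 96.5 and 82.9 in Pax5R31Q/-, and 2.60 and 1.66 TPM in Pax5-/-. The groups did not overlap, with a log2 fold change of -1.27 ± 0.18 in Pax5R31Q/- (SE, limma adjusted p = 0.0103) and of -6.14 in Pax5-/- (limma adjusted p = 1.53e-06). The study had picked Siglecg, Heyl, Dkk3 and Pcp4l1 as examples on these same samples.

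Both genes that were called higher had a lost peak over the TSS, and Myl10 had another that did not cover it. Myl10, a regulatory light chain of myosin on chromosome 5 from 136688892 to 136701857, had 40.3 and 30.2 TPM in Pax5+/+, 129 and 190 in Pax5+/-, 217 and 389 in Pax5R31Q/-, and 1334 and 1552 TPM in Pax5-/-. Each genotype was above the one before it in that order without overlap, with a log2 fold change of 3.02 ± 0.30 in Pax5R31Q/- (SE, limma adjusted p = 0.00254). Gimap3 had 9.98 and 20.7 TPM in Pax5+/+, 24.2 and 34.2 in Pax5+/-, 86.4 and 53.9 in Pax5R31Q/-, and 61.5 and 55.4 TPM in Pax5-/-. Its Pax5R31Q/- and Pax5-/- values overlapped, and the log2 fold change of 2.17 ± 0.35 in Pax5R31Q/- (SE, limma adjusted p = 0.0164) lost its call without library 1 of Pax5+/+ or without either Pax5R31Q/- library, with adjusted p-values up to 0.141. Gimap3 has close paralogs, so its reads may be split between copies.

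**Figure D5:**
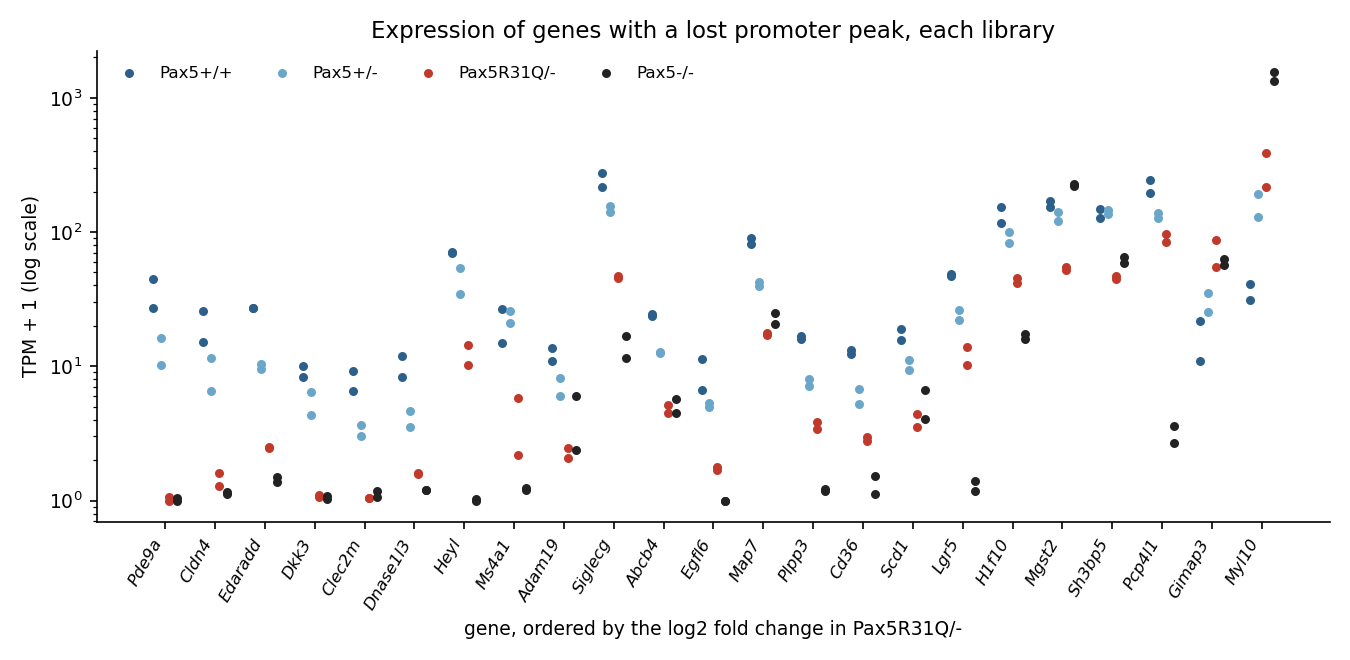
TPM + 1 (y axis, log scale) in each of the 8 libraries for the 22 called genes at lost promoter peaks and Pcp4l1, ordered by the log2 fold change in Pax5R31Q/- against Pax5+/+; each point is 1 library, coloured by genotype. Points of Pax5R31Q/- lie below those of Pax5+/+ for the first 21 genes and above them for Gimap3 and Myl10.

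The position of the lost peak was examined for these genes. Of the 262 genes tested with the TSS inside the lost peak, 11 were called lower (4.20%), against 9 of 361 with the TSS outside it (2.49%). The Wilson intervals of these shares overlapped, and their difference was not tested. Over all genes tested, 0.558% were called lower. By width, 8 of 269 genes with a peak under 300 bp, 7 of 235 from 300 to under 420 bp and 5 of 119 at 420 bp and over were called lower, with overlapping Wilson intervals. Of the 26 genes whose lost peak held a site of 11 or more letters, 0 were called lower, where the Wilson interval reaches 12.9%. In a region reaching from 10 kb before to 10 kb after the gene, 14 of the 23 genes in the plot of TPM had no Pax5+/+ peak that a Pax5R31Q/- peak overlapped, and 12 had no Pax5R31Q/- peak at all. Among the other 600 genes tested at lost promoter peaks, the numbers were 196 (32.7%) and 160 (26.7%). The difference was not tested, and 22 of the 23 genes had been chosen by their expression. Siglecg, Ms4a1, Abcb4, Adam19, Egfl6 and H1f10 had 1 Pax5+/+ peak each in this region, which was the lost one. Heyl, Lgr5 and Myl10 had 4 Pax5+/+ peaks each, of which 2 were overlapped.

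Pax5+/- pro-B cells carry a wild-type allele where Pax5R31Q/- cells carry the R31Q allele. Against Pax5+/-, 6 of the 623 genes were called lower in Pax5R31Q/- pro-B cells (0.963%), where 0.119% of all genes tested were called, and 0 were called higher, where 0.0893% of all genes were. Of the 623 genes, 106 (17.0%) had an unadjusted p under 0.05 in this limma comparison, beside 8.79% of all genes tested. The log2 fold changes were -3.64 for Pde9a (limma adjusted p = 0.00491), -2.60 for Cldn4, -1.99 for Edaradd, -1.81 for Heyl, -1.69 for Siglecg and -1.62 for Sh3bp5. The count was 0 without library 1 of Pax5+/- or without either Pax5R31Q/- library (each left out in turn), 3 without library 2 of Pax5+/- or without either Pax5+/+ library, and 5 without either Pax5-/- library. In Pax5+/- against Pax5+/+, 0 of the 623 genes were called in limma, while 0.0223% of all genes were called lower and 0% higher. The number with an unadjusted p under 0.05 was 68 (10.9%), beside 6.06% of all genes tested, and every alternative fit gave 0 calls.

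In Pax5-/- against Pax5+/+, 57 of the 623 genes were called lower (9.15%), where 3.45% of all genes tested were, and 15 were called higher (2.41%), where 2.87% of all genes were. The median log2 fold change of genes at lost promoter peaks was -0.25, beside -0.11 over all genes and -0.13 over genes with shared promoter peaks only. Both comparisons share the Pax5+/+ libraries, so their values are only set side by side. For the called genes, the log2 fold changes in Pax5R31Q/- and in Pax5-/- were -2.40 and -4.13 for Siglecg, -2.53 and -6.12 for Heyl, -2.01 and -5.23 for Lgr5, -2.30 and -1.91 for Map7, and -1.59 and -1.16 for Sh3bp5.

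The pathway lists were drawn up with earlier results of these data known. Over all genes of the RNA-seq table, 3.10% had a lost promoter peak, and 4.64% of those tested. Of 44 genes of B cell receptor signaling and the B-lineage surface, 6 had a lost promoter peak, of which 3 were called lower (Siglecg, Ms4a1 and Sh3bp5) and 0 higher. Over the 43 of the list that were tested, 5 were called lower, beside 0.558% of all genes tested, and the median log2 fold change was -0.41. The other 3 with a lost peak were the kinase subunit Pik3cd, with a log2 fold change of -0.02, the Fc receptor-like gene Fcrl1 with -0.51 and the adaptor gene Lax1 with -0.01. Of 43 lymphoid transcription regulators, 5 had a lost promoter peak and 0 of these were called, while 3 of the 43 in the whole list were called lower. Their log2 fold changes in Pax5R31Q/- were 0.05 for Tcf12, 0.00 for Spi1, 0.16 for Ets1, -0.26 for Mef2d and 0.61 for Nr3c1, the glucocorticoid receptor, which kept 3 shared promoter peaks.

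For the lists that follow, the shares called over all genes tested were again 0.558% lower and 0.275% higher, and 3.10% of all genes had a lost promoter peak. Of 38 Notch and Wnt pathway genes, 4 had one. Heyl and Dkk3 were called lower, among 2 lower and 1 higher of the 33 tested in the whole list. The Wnt feedback gene Axin2 had a log2 fold change of -0.65 (limma adjusted p = 0.132), and Fzd3 was under the expression filter. Of 42 genes of adhesion, cytoskeleton and migration, 3 had one, of which Map7 and Cldn4 were called lower (6 of 40 tested in the whole list, with 2 higher) and S1pr1, a receptor for lymphocyte egress, had -0.35 (limma adjusted p = 0.364). Of 15 V(D)J recombination and end joining genes, Lig4 had a lost promoter peak beside 2 shared ones and a log2 fold change of -0.02, and 1 of the 15 in the whole list was called lower. Of 14 housekeeping genes, 0 had one.

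Genes that mark pro-B cells were also among the members. The peak at Il7r, the receptor for IL-7, had its midpoint on the TSS, and the gene had no shared promoter peak. Il7r had 206 and 204 TPM in Pax5+/+, 255 and 291 in Pax5+/-, 421 and 379 in Pax5R31Q/-, and 200.3 and 409 TPM in Pax5-/-. The log2 fold change of 0.96 in Pax5R31Q/- did not pass the test (limma adjusted p = 0.124). Vpreb2, a surrogate light chain gene, had a log2 fold change of -0.0041 in Pax5R31Q/-. Gata3, a T-lineage regulator, was at 0.326 TPM or lower in every library except those of Pax5-/-, where it had 1.95 and 1.63 TPM.

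The most highly expressed genes at lost promoter peaks that did not pass the test encode ribosomal proteins. Rps26 had 5294 and 6999 TPM in Pax5+/+ and 4577 and 5361 TPM in Pax5R31Q/-, with a log2 fold change of -0.30 (limma adjusted p = 0.453). It had a lost peak of 864 bp and no shared promoter peak. Rplp1, Rpl12, Rpl32 and Rpl6 had log2 fold changes between -0.11 and 0.22. These genes have many processed copies in the genome, so that their values are uncertain. Tapt1, at the peak of 890 bp, had 260 and 244 TPM in Pax5+/+ and 256 and 245 TPM in Pax5R31Q/- (log2 fold change -0.01), and Cdyl2 had a log2 fold change of -0.24 (limma adjusted p = 0.507).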

How the data were processed

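Pax5 ChIP-seq peaks (1 library per genotype) and RNA-seq values (2 libraries per genotype, 4 genotypes) of mouse pro-B cells were used as deposited. The authors aligned RNA-seq reads with STAR 2.4.2 to GRCm38/mm10 and counted them with featureCounts, and the deposited values are TPM for 25579 genes, which sum to 1000000 in each library. The authors aligned ChIP-seq reads to GRCm38/mm10 with Bowtie2 2.3.5.1 and called peaks with MACS, and the deposited lists hold positions only. Reads were down-sampled with Picard 2.18.27 where peak regions were compared, and whether these lists were made that way is not given in the sources used here. The read depth behind either kind of value was not analysed here, so the number of libraries limits the precision. The Pax5R31Q/- ChIP-seq library is described in one label field with Rag2 in place of Pax5, and its genotype field was followed.

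TSSs were the 5′ ends of RefSeq mRNAs and long noncoding RNAs of GRCm38.p6, without small RNAs, and an overlap of 1 bp made a peak shared. Sequences came from RefSeq GRCm38.p6. Analyses used Python 3.11.15 with pandas 2.3.3, numpy 2.4.6 and pysam 0.24.0, R 4.3.3 with limma 3.58.1, and matplotlib 3.10.9. limma was fitted to log2(TPM + 1) over all 4 genotypes, with eBayes and a trend, for the 13436 genes that reached 1 TPM in any library. The thresholds follow the study, and calls exclude 385 immunoglobulin genes. The study's DESeq2 needs read counts, which were not used here. With 2 libraries against 2, an exact two-sided permutation test cannot go below p = 0.333. The fit was tested on simulated data. Shares of peaks carry Wilson intervals (95%), which cover counting error only.

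Named genes are those called in Pax5R31Q/- against Pax5+/+ (up to 20 lower and 10 higher) or against Pax5+/- (up to 5 in each direction), the study's examples Siglecg, Heyl, Dkk3 and Pcp4l1, members of the pathway and marker lists, the 5 most expressed genes that did not pass the test, and the genes of the 3 widest peaks and of those at the limits of the rule. Members and lists were chosen with earlier results of these data known. Restriction to curated TSSs and inclusion of small RNAs were added after the data had been seen.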

Additional observations from a re-analysis of the deposited data

How the results depend on the processing

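The number of lost promoter peaks ranged from 630 to 1531 over 10 definitions, and it moved by more than 1.5 times with TSSs within 2500 bp (1531), which also gave 5 genes called higher. A fold threshold of 2 gave 35 genes lower and 4 higher in Pax5R31Q/-, 128 called in Pax5-/- (72 at 3-fold) and 11 against Pax5+/- (6 at 3-fold). Without a filter on low TPM, 3 genes were called against Pax5+/-. With 1 library left out in turn, the count of genes called lower ranged from 15 to 21, the count called higher from 1 to 2, the count called against Pax5+/- from 0 to 5, the count called in Pax5-/- from 69 to 76 and the median log2 fold change from -0.064 to 0.0101, the last value without library 2 of Pax5R31Q/-. A lone library of a genotype is then assumed to vary like the others. The median width was 304 bp with peaks limited to 500 bp, and the share of peaks with either Pax5 segment was 23.97% in a 200-bp window. The other alternatives, which were the pseudocount, the genotypes in the fit, the scaling, the trend, the nearest TSS, the distance to the TSS, the width limit, the overlap, the masking and the kind of TSS, left the count of genes called lower between 14 and 29. Of 299 fits of single genes (23 genes, 13 alternatives), 273 kept the main result, 26 lost the call and 0 changed sign. No paired analysis was made, because the labels used here do not pair libraries of different genotypes. Libraries 1 and 2 are numbers within a genotype.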
